A study of Mus musculus with 3 samples.

Results

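The genes described here encode the integrins and the main proteins of the basement membrane: 17 integrin alpha chains, 8 integrin beta chains, 10 laminin chains, the nidogens Nid1 and Nid2, and perlecan (Hspg2). They were picked by gene name. All 38 were found on the array, among 28578 genes with a value on every array, and 80 probes represented them. They were followed in E14.1, a line of mouse embryonic stem (ES) cells, through a differentiation towards hepatic cells. Day 0 was the undifferentiated line, kept on gelatin-coated plates in N2 and B27 supplemented medium containing LIF at 1000 U/ml and BMP4 at 10 ng/ml. Day 5 was definitive endoderm derived from it, the germ layer that gives rise to liver, pancreas and gut, after seeding onto plates coated with mouse collagen IV, with activin A at 30 ng/ml in place of LIF and BMP4. Day 7 was early hepatic cells, kept for 2 further days with BMP4 at 30 ng/ml and bFGF at 10 ng/ml beside the activin A. No sample carried a labelled genetic change, and each day was measured once, on 1 one-colour Agilent array of total RNA. Because growth factors, coated plates and time in culture all differed between day 0 and the later days, their effects cannot be told apart.

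Integrins are pairs of 1 alpha and 1 beta chain that span the cell membrane, bind the matrix or other cells outside and, through adaptor proteins, the actin cytoskeleton inside. Laminins are cross-shaped trimers of an alpha, a beta and a gamma chain. They assemble into the sheet on which the basement membrane forms, which nidogens and perlecan join to a collagen IV network. In the early mouse embryo, laminin with the alpha1, beta1 and gamma1 chains and laminin with the alpha5 chain underlie the first epithelia, and ES cells attach to laminin through alpha6beta1 integrin.

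Each value below is a normalised log2 signal, the log2 processed signal of a probe minus the 75th percentile of its array, so that 0 is that percentile. Higher and lower are used of a gene for which 2 arrays differed by at least 1 on this scale, which is 2-fold, and the extraction software had marked the probe as well above background on the brighter one. Without that mark on the dimmer array, the fold is a bound, given as "at least". With 1 array per day there was no test, and no difference has a replicate check. Precision is limited by the number of arrays. Within an array, the spread of repeated spots was small, with a median SD of 0.080, 0.076 and 0.077 on days 0, 5 and 7. That spread covers only probes well above background, and it measures nothing between arrays or for dim probes. Levels of different genes come from different probes and cannot be ranked against each other. The sums over marker lists given below do add such levels, so a gene's part in a sum depends on its probe too. The arrays shared 1 slide, had 71.7%, 70.9% and 71.6% of gene spots well above background and had no saturated gene spot.

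The cell type labels were set against markers. All 5 ES cell markers were lower on day 5 and on day 7 than on day 0, and all 5 stayed well above background. All 5 markers of definitive endoderm were higher on both later days than on day 0, and 3 were lower on day 7 than on day 5. Of 6 hepatic markers, 5 were higher on day 7 than on day 0, with Afp up 875-fold, while the albumin probe (Alb) cleared background by that mark on day 5 alone. Already on day 5, 4 of the 6 were higher than on day 0, and 4 were higher on day 7 than on day 5. The 9 markers of fibroblasts and mesenchyme were all higher on day 7 than on day 5 and on day 0, so the day 7 RNA also carried transcripts of that kind.

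Of the 38 genes, 33 were well above background on all 3 arrays. Itga4 was so on days 5 and 7, Itgam on day 0 alone, Itgb6 and Itgb8 on day 7 alone, and Itga2 on none. Between day 5 and day 0, 35 genes could be compared, and 7 (20%) were higher and 9 (25.7%) lower, against 16.8% higher and 16.5% lower among 21154 genes of the whole array. Their median difference was 0.04, against -0.14 for all genes. Between day 7 and day 0, 14 of 37 genes (37.8%) were higher and 6 (16.2%) lower, against 16.5% and 19.4% of 21314 genes, with medians of 0.75 and -0.21. Between day 7 and day 5, 8 of 36 genes (22.2%) were higher and 4 (11.1%) lower, against 6.23% and 8.75% of 20736 genes, with medians of 0.13 and -0.09. Laminins made up 7 of the 14 genes higher on day 7 than on day 0: 7 of 10 laminin genes were higher and 1 lower (median 1.29), while 6 of 24 integrin genes were higher and 5 lower (median 0.00). In RNA from a mixed culture, fewer cells of a type and less RNA per cell cannot be told apart. With a normexp background correction fitted to all spots, 7 of the 16 calls on day 5 against day 0, 7 of the 20 on day 7 against day 0 and 4 of the 12 on day 7 against day 5 were lost. The comparisons with day 0 share the day 0 array, and those involving day 7 share the day 7 array.

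**Figure D1:**
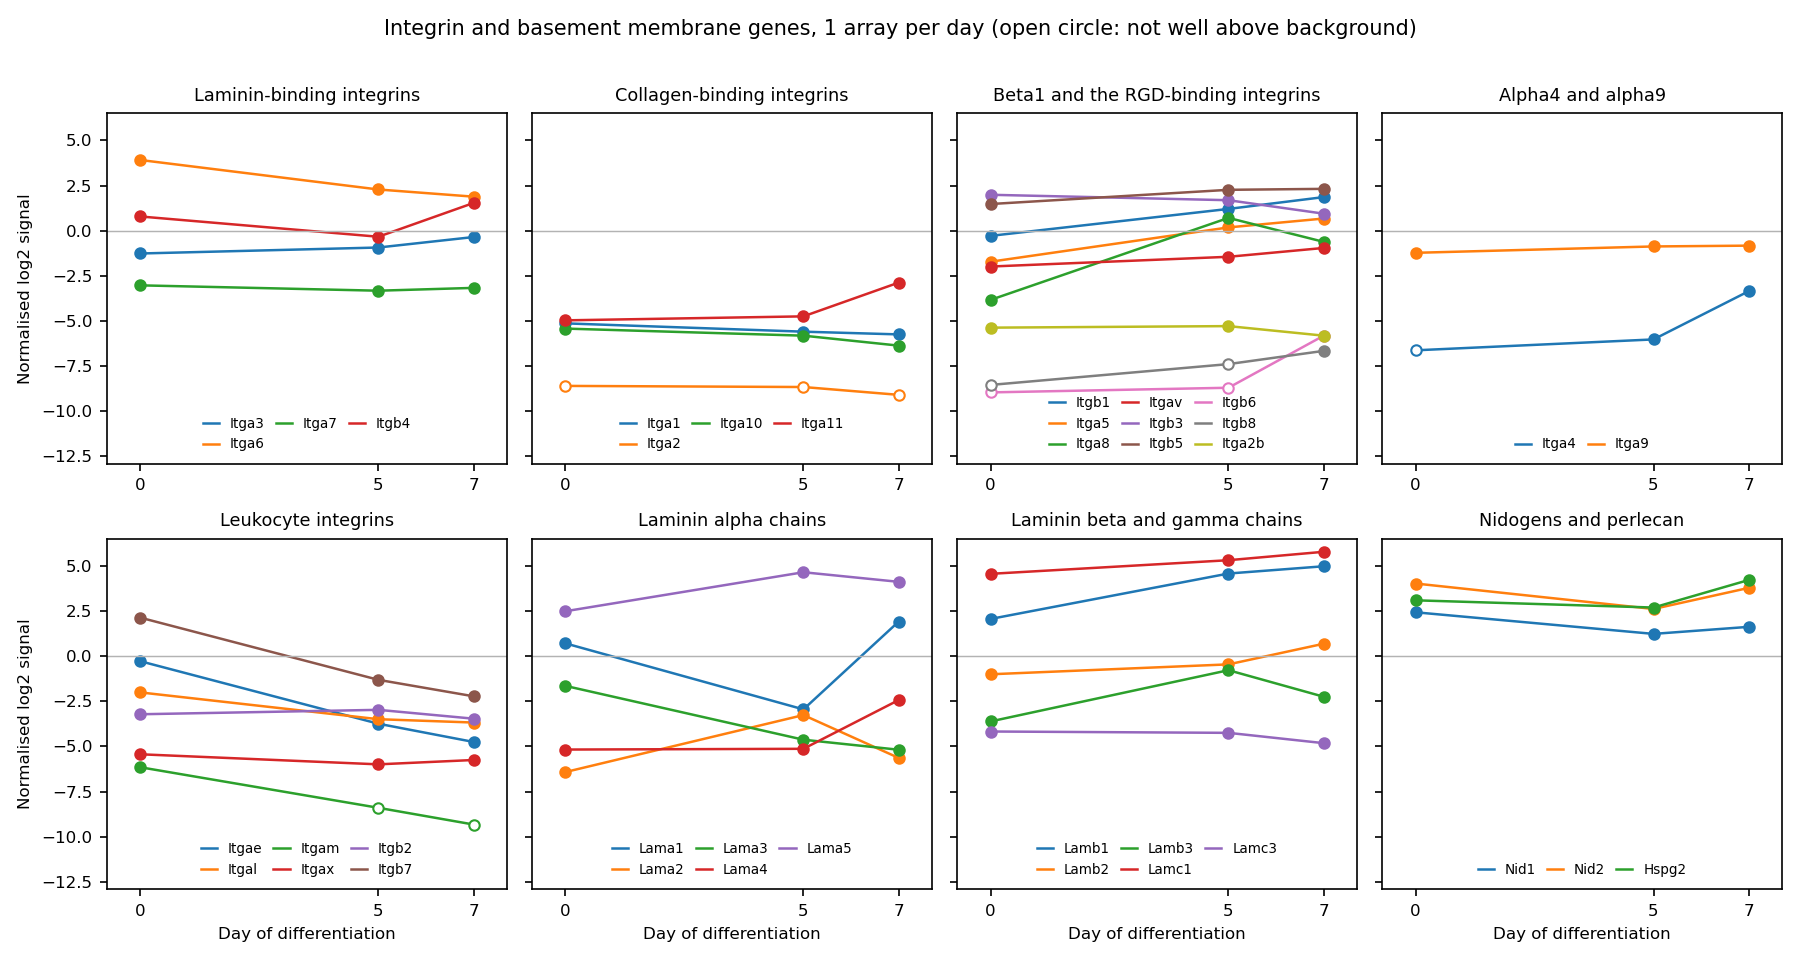
Normalised log2 signal (y axis, 0 is the array's 75th percentile) of all 38 genes on days 0, 5 and 7 (x axis), 1 array per day, grouped by role. Filled points were well above background and open points were not. Itgae and Itgb7 lie lower on days 5 and 7 than on day 0, Itga8 and Lama2 peak on day 5, and Lama1 is lowest on day 5.

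Among the 5 laminin beta and gamma chains, 2 were higher on day 5 than on day 0 and 4 on day 7. Of all genes, 16.8% were higher and 16.5% lower on day 5, and 16.5% and 19.4% on day 7. None of the 5 chains was lower than on day 0, which says little beside those shares with so few genes. Lamb1, the beta chain of most embryonic laminins, had signals of 2.06, 4.57 and 4.97 on days 0, 5 and 7. It was 5.72-fold higher on day 5 and 7.55-fold higher on day 7 than on day 0. Lamc1, the gamma1 chain found in most laminin trimers, had 4.56, 5.31 and 5.78. Its day 5 signal lay 1.69-fold above day 0, short of the 2-fold limit, and its day 7 signal was 2.33-fold higher than on day 0. Lamb2, the beta chain that replaces beta1 in laminins of the kidney filter and the neuromuscular junction, had -1.01, -0.46 and 0.68. This was 3.23-fold higher on day 7 than on day 0 and 2.21-fold higher than on day 5. Lamb3, the beta chain of the epithelial laminin that anchors skin, was highest on day 5, with -3.62, -0.78 and -2.25. It was 7.15-fold higher on day 5 than on day 0, and on day 7 it was 2.77-fold lower than on day 5. Lamc3 passed the 2-fold limit in none of the comparisons (-4.17, -4.25 and -4.82).

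The alpha chain largely decides which receptor a laminin binds, and the 5 alpha chains followed different courses. Lama1, the alpha chain of the first laminin of the embryo, had signals of 0.71, -2.95 and 1.91. It was 12.6-fold lower on day 5 than on day 0, and on day 7 it was 29.0-fold higher than on day 5 and 2.30-fold higher than on day 0. Only the day 5 array was low. The difference of 4.86 between day 7 and day 5 was the largest among the 36 genes compared. Lama5, the alpha chain of the other main laminin of early epithelia, had 2.49, 4.64 and 4.11, so that day 5 was 4.47-fold and day 7 3.09-fold higher than day 0. Thus day 5, where Lama1 was lowest, was where the Lama5 probe was brightest. Lama5 was read by a single probe of 60 bases, and its listed mm9 interval covers only 15.

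The probes of Lama1 and Lamb1 are printed here because each is its gene's single probe and carries the results above. Both are 60 bases long, 5′ to 3′, and both map to the plus strand of mm9 as an interval longer than the probe, so that each spans at least 1 intron and reads spliced RNA. The Lama1 interval is chr17:68167016-68167978 and the Lamb1 interval is chr12:32012684-32014030.
Lama1 probe: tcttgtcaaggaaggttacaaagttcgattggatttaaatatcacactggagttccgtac
Lamb1 probe: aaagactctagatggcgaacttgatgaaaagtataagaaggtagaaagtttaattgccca

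Lama4, an alpha chain of blood vessel and mesenchymal basement membranes, had low signals until day 7, with values of -5.17, -5.13 and -2.43. It was 6.49-fold higher on day 7 than on day 5 and 6.68-fold higher than on day 0. Another probe, which overlaps the one used, showed the same course, and was 7.12-fold higher on day 7 than on day 5. The pair is printed to show the overlap, with the 29 bases that they share in capitals, so they are not independent readings. The probe used lies at chr10:38825794-38825853 (mm9, plus strand), and the second one spans chr10:38825032-38825822 across a splice junction.
Lama4 probe used: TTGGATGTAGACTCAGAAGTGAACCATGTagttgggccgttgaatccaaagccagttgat
Lama4 second probe: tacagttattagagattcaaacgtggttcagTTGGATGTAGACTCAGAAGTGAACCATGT
A further Lama4 probe without that overlap was well above background on day 7 alone, at least 3.94-fold higher than on day 5.

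Lama2, the alpha chain of muscle and nerve basement membranes, peaked on day 5, with -6.42, -3.26 and -5.63. Its probe was printed as repeated spots, whose SDs were 0.25, 0.09 and 0.17. It was 8.91-fold higher on day 5 than on day 0, and on day 7 5.17-fold lower than on day 5. The other Lama2 probes disagreed: one was well above background on day 5 alone, at least 2.74-fold higher than on day 0, and one had -6.34 on day 5, against -5.74 on day 0, and was not well above background on day 7. Lama3, the alpha chain that pairs with Lamb3 in skin, had -1.65, -4.63 and -5.18, which was 7.89-fold lower on day 5 and 11.6-fold lower on day 7 than on day 0. Its second probe lay between -5.99 and -5.64 on all 3 arrays and passed no limit. The Lama3 result therefore rests on 1 of 2 probes. With the normexp correction fitted to all spots, the signs of the Lama2 differences on day 5 against day 0 and on day 7 against day 5, of both Lamb3 differences from day 0, and of the Lama4 difference between day 7 and day 0 turned round. With the same correction referred to the negative control spots, none of these signs turned, and of these Lamb3 on day 7 against day 0 fell short of the limit, at 0.97. Several sizes shrank, however. Lama2 was 2.78-fold higher on day 5 than on day 0 and 2.75-fold lower on day 7 than on day 5, Lama4 on day 7 was 3.82-fold higher than on day 5 and 3.37-fold higher than on day 0, and Lama3 on day 7 was 6.38-fold lower than on day 0.

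Nid1 and Nid2, the linkers between laminin and collagen IV, were both lower on day 5. Nid1 had signals of 2.43, 1.23 and 1.62, and was 2.29-fold lower on day 5 than on day 0. Nid2 had 4.02, 2.61 and 3.78, and was 2.66-fold lower on day 5 than on day 0 but 2.25-fold higher on day 7 than on day 5. Perlecan (Hspg2), the heparan sulphate proteoglycan of the basement membrane, had 3.09, 2.69 and 4.21, and was 2.88-fold higher on day 7 than on day 5 and 2.18-fold higher than on day 0. Lama1, Nid1, Nid2 and Hspg2 thus shared a low point on day 5. For Hspg2 it lay 1.32-fold below day 0, within the limit, and the Nid1 signal on day 7 was 1.31-fold above day 5, also within it. Parietal endoderm makes much basement membrane, and of 7 of its markers 4 were higher and 2 lower on day 5 than on day 0, with 3 higher and 1 lower on day 7 than on day 5. On day 5, Pdgfra (71-fold), Snai1 (7.60-fold), Plat and Fst were higher than on day 0, and Sox7 and Stra6 were lower. Plat, Fst and Sox7 were higher on day 7 than on day 5, and Thbd was not well above background on day 7. Their summed level, as a percentage of each array's 75th percentile, was 757, 719 and 1071 on days 0, 5 and 7. Stra6 made up 653, 253 and 231 of this, and the other 6 markers summed to 104.6, 466 and 840. Pdgfra was 278 of the 466 on day 5. Of the 7 markers, Sox7 alone had its lowest signal on day 5 (-0.87, -1.94 and 1.71). The part of such cells in these results was not tested.

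**Figure D2:**
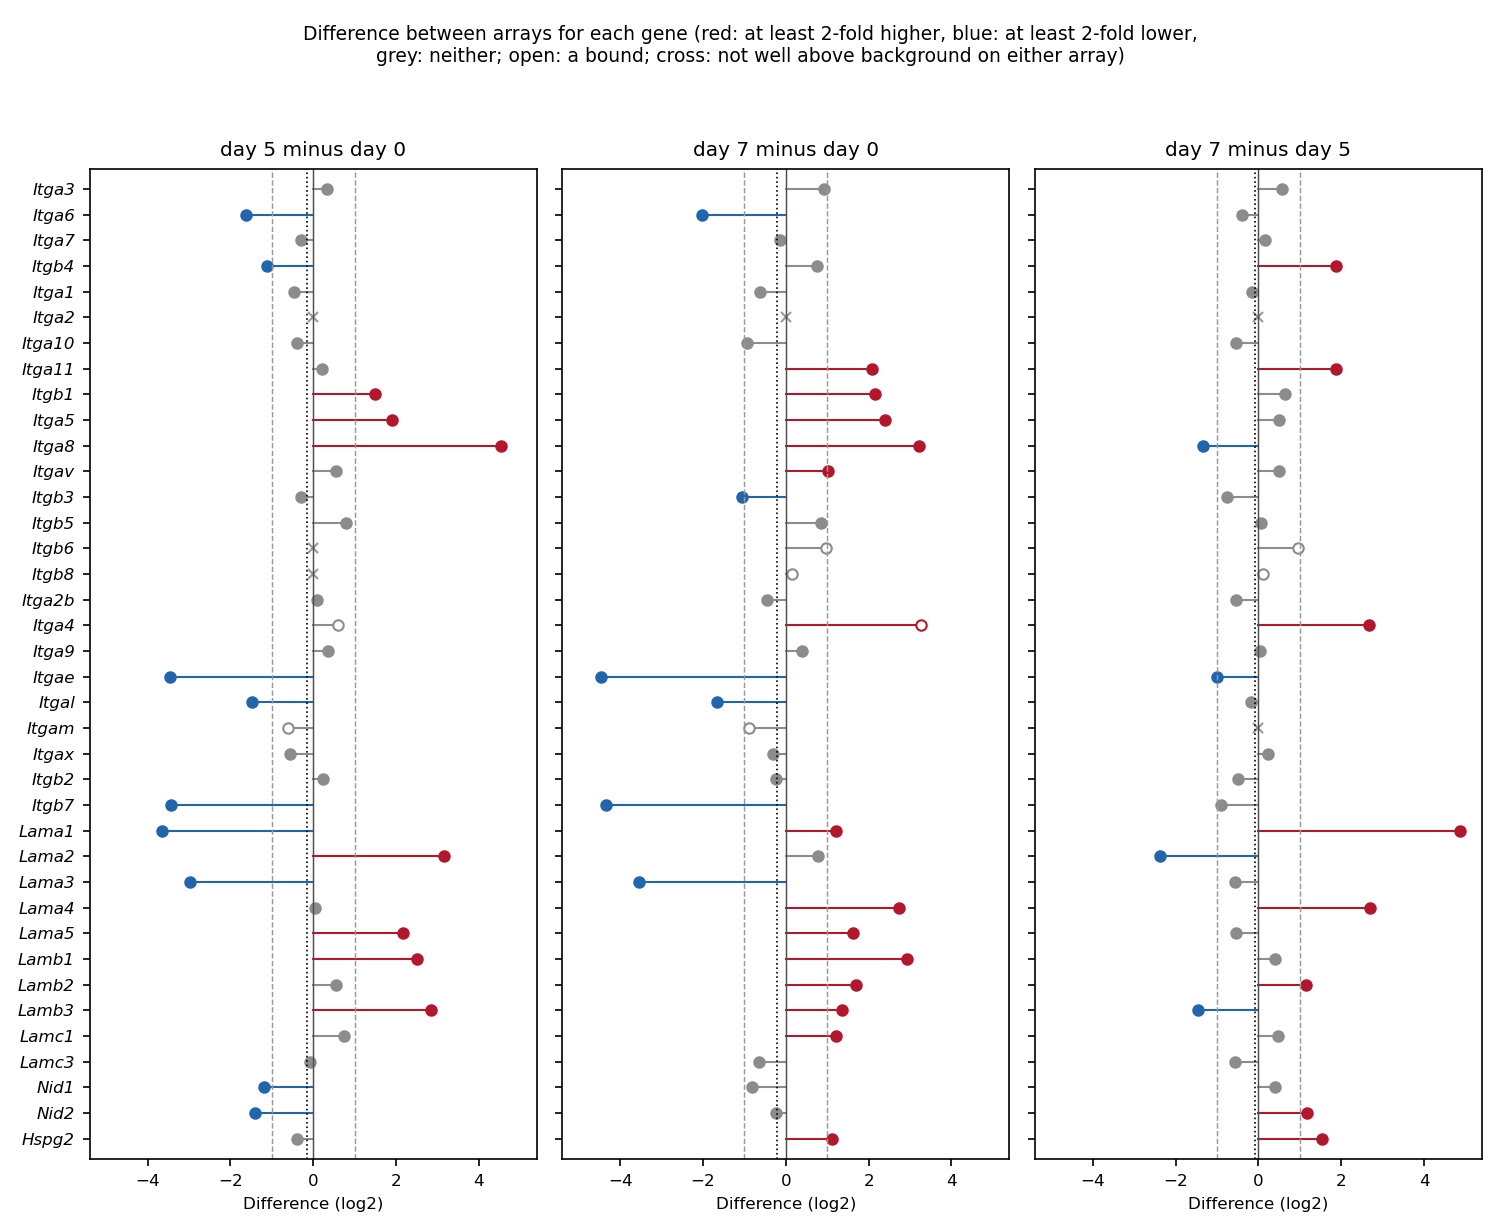
Difference in normalised log2 signal (x axis) of each of the 38 genes (y axis) for day 5 minus day 0, day 7 minus day 0 and day 7 minus day 5. Dashed lines mark the 2-fold limit and the dotted line the median over all genes on the array. The left panel holds 7 red and 9 blue genes, the middle panel 14 and 6, and the right panel 8 and 4.

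Of the 4 integrin chains specific to laminin receptors, Itga6 was lower than on day 0 on both later days and Itgb4 on day 5 alone. Itga6, the alpha chain of the main laminin receptor of ES cells, had signals of 3.91, 2.28 and 1.88. It was 3.10-fold lower on day 5 and 4.08-fold lower on day 7 than on day 0. All 3 Itga6 probes gave day 5 and day 7 signals at least 3.10-fold lower than day 0. Itgb4, the beta chain that joins alpha6 in hemidesmosomes, had its low point on day 5, with 0.79, -0.34 and 1.53. It was 2.18-fold lower on day 5 than on day 0 and 3.65-fold higher on day 7 than on day 5. A second Itgb4 probe shares 50 of its 60 bases with the one used and gave 0.41, -0.54 and 1.09, just short of the limit on day 5 against day 0, so that the day 5 decrease depends on the probe. Itga3, the alpha chain of a laminin receptor of epithelia, had -1.26, -0.93 and -0.35, and its day 7 signal lay 1.88-fold above day 0, within the limit. Itga7, the laminin receptor chain of muscle, had -3.03, -3.32 and -3.17. A second Itga7 probe differed, with -5.49 on day 0 and -4.71 on day 7, and was not well above background on day 5. There day 5 was at least 2.43-fold lower than day 0, and day 7 at least 4.17-fold higher than day 5.

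The alpha chains that bind collagen had signals far below the array's 75th percentile on every day, and the cells of days 5 and 7 had been seeded on collagen IV. Itga1 and Itga10, alpha chains of collagen receptors, passed the limit in none of the comparisons, with signals between -5.74 and -5.13 for Itga1 and between -6.36 and -5.42 for Itga10. The other Itga1 probes differed from it, since both were well above background on day 7 and not on day 5, with day 7 at least 2.35-fold and at least 4.35-fold higher. Itga2 was not well above background on any array with either of its probes. Itga11, the alpha chain of a fibrillar collagen receptor of mesenchymal cells, had -4.96, -4.74 and -2.88, which was 3.65-fold higher on day 7 than on day 5 and 4.25-fold higher than on day 0. The Itga11 difference between day 7 and day 0 was -0.96 with the normexp correction fitted to all spots, and 1.36 (2.56-fold) with that referred to the negative controls.

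Itgb1, the common partner of most alpha chains, and the fibronectin receptor chain Itga5 were higher on both later days. Itgb1 had signals of -0.29, 1.21 and 1.86, with spot SDs of 0.07, 0.04 and 0.05. It was 2.81-fold higher on day 5 and 4.43-fold higher on day 7 than on day 0. A second Itgb1 probe moved alike (-1.74, -0.34 and 0.34), and another stayed dim on every array. Itga5, which joins Itgb1 to form the main fibronectin receptor, had -1.72, 0.18 and 0.67, so that day 5 was 3.73-fold and day 7 5.25-fold higher than day 0. Both chains of this receptor were therefore higher on the later days. Itga8, the alpha chain of the nephronectin receptor known from kidney development, differed most among the integrins on day 5. Its signals were -3.83, 0.71 and -0.62, which made it 23.3-fold higher on day 5 and 9.29-fold higher on day 7 than on day 0, and 2.51-fold lower on day 7 than on day 5. A second Itga8 probe gave -4.09, -0.01 and -1.32, the same course. With the normexp correction referred to the negative controls, the day 5 signal was 14.8-fold higher than on day 0, and with that fitted to all spots the call on day 7 against day 0 was lost.

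The alphav integrins bind vitronectin and, in some pairs, activate latent TGF-beta. Itgav had signals of -1.98, -1.45 and -0.96, and its day 7 signal was 2.04-fold higher than on day 0, at the edge of the limit. Of its other probes, 2 were also higher on day 7 than on day 0 (2.04-fold and at least 2.4-fold). The rest were not well above background on any array, and they enter the median over probes given below. The usual partner of Itgav, Itgb5, had 1.48, 2.26 and 2.32, within the limit throughout. Itgb3, the partner that also serves platelets, had 1.99, 1.69 and 0.94, and was 2.06-fold lower on day 7 than on day 0. A second Itgb3 probe gave -1.09, -4.20 and -0.85, with its low point on day 5, so the Itgb3 probes disagree. The Itgav and Itgb3 calls on day 7 were lost with quantile normalisation (0.98 and -0.99), with the normexp correction referred to the negative controls (0.97 and -0.997) and with the median over probes (0.01 and -0.40), and that of Itgb3 also with the authors' values (-0.96). Itgb6 and Itgb8, partners of alphav that activate latent TGF-beta, were well above background on day 7 alone, and their day 7 signals were at least 1.97-fold and at least 1.1-fold higher than on day 0. Itga2b, the platelet alpha chain, had -5.37, -5.28 and -5.81, within the limit throughout. Of 7 megakaryocyte and early blood markers, Pf4 and Gp9 were not well above background on any array. Of the 5 compared, 3 were higher on day 5 than on day 0 (Gata1 7.08-fold, Nfe2 2.36-fold and Gp1ba at least 3.16-fold) and Tal1 was lower. On day 7, Gp1ba (at least 6.91-fold) and Nfe2 (2.31-fold) were higher than on day 0, and Gata1 and Tal1 were lower.

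Itga4, the alpha chain of a receptor for VCAM1 and fibronectin, was not well above background on day 0 and had signals of -6.02 and -3.35 on days 5 and 7. It was 6.36-fold higher on day 7 than on day 5 and, with the processed signals, at least 9.66-fold higher than on day 0. These folds depended on the background correction: with normexp referred to the negative controls they were 3.00 and 2.57, and with normexp fitted to all spots the call against day 0 was lost (log2 difference 0.00). A second Itga4 probe was well above background on day 7 alone, and was at least 2.67-fold higher there than on day 5. Vcam1, a ligand picked out after its value was seen, was likewise well above background on day 7 alone, at least 6.99-fold higher than on day 5. Its relative Itga9 had -1.23, -0.87 and -0.83 and stayed within the limit. Itga4, Itga11 and Lama4 were thus higher on day 7 than on day 5, and the mesenchymal markers were higher in that comparison too. The summed level of those 9 markers, as a percentage of the array's 75th percentile, was 94.9, 282 and 2255 on days 0, 5 and 7, and 66.3, 270 and 1555 without Col1a1, the brightest of them. Among them Col3a1 was 108-fold and Postn 86.5-fold higher on day 7 than on day 5, and Lum and Dcn were not well above background on day 0. Of 6 endothelial markers, 2 were higher on day 7 than on day 5 (Pecam1 at least 2.74-fold and Tek 2.23-fold) and none was lower. Against day 0, Kdr and Cdh5 were higher on day 7, and Pecam1 and Tek were lower. The part of mesenchymal or endothelial cells in these results for Itga4, Itga11 and Lama4 was not tested.

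The genes known as leukocyte integrins had some of the largest decreases. Itgae, the alpha chain of CD103, had signals of -0.28, -3.74 and -4.75, and was 11-fold lower on day 5 and 22.1-fold lower on day 7 than on day 0. Itgb7, its only known beta partner, had 2.13, -1.31 and -2.22, and was 10.9-fold lower on day 5 and 20.4-fold lower on day 7 than on day 0. Both chains of the pair, whose ligand is E-cadherin, therefore had their highest signal on day 0. The E-cadherin gene Cdh1 had 3.64, 4.46 and 3.42, and was 2.06-fold lower on day 7 than on day 5. The step in Itgae between day 7 and day 5 was at the limit (2.01-fold lower), and was lost with quantile normalisation (-0.85), with the authors' values (-0.85) and with the normexp correction referred to the negative controls (-0.64). With that last correction, day 7 was 13.5-fold lower than day 0. A second Itgae probe was well above background on day 0 alone, and its day 7 signal was at least 2.12-fold lower.

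The Itgae probe that carries these values spans chr11:72959105-72960563 (mm9, plus strand) across a splice junction and is shown because it is the reading behind a leukocyte integrin in cultured ES cells.
Itgae probe: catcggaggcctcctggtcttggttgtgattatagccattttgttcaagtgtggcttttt
The longest run of bases that any probe of one of the 38 genes shares with a probe of another is 11, and none of the 80 probe sequences is printed on the array under another probe.

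Itgal, the alpha chain of LFA-1, had signals of -2.01, -3.49 and -3.68, and was 2.80-fold lower on day 5 and 3.18-fold lower on day 7 than on day 0. A second Itgal probe was well above background on day 0 alone, and there day 5 was at least 24.1-fold lower. Itgb2, the beta chain that Itgal needs at the surface of leukocytes, had -3.22, -2.97 and -3.46, within the limit throughout. Itgam, of the complement receptor of myeloid cells, was well above background on day 0 alone, and day 5 was at least 1.53-fold lower. Itgax, of a related receptor of dendritic cells, had -5.44, -5.99 and -5.75. Among 8 leukocyte markers, Ptprc (CD45), Spi1 and Cd53 were not well above background on any array. Laptm5, Coro1a and Cd52 were lower on day 5 than on day 0, and Lcp1 was 26.7-fold higher. The summed level of the 8 markers was 360, 469 and 794 percent of the 75th percentile on days 0, 5 and 7. Lcp1 made up 15.1, 404 and 772 of this, and the other 7 markers summed to 345, 65.1 and 22.6. On day 0, Coro1a (196) and Laptm5 (141) made up most of the 345. Tyrobp was well above background on day 5 alone. The part of leukocytes in these results was not tested.

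**Figure D3:**
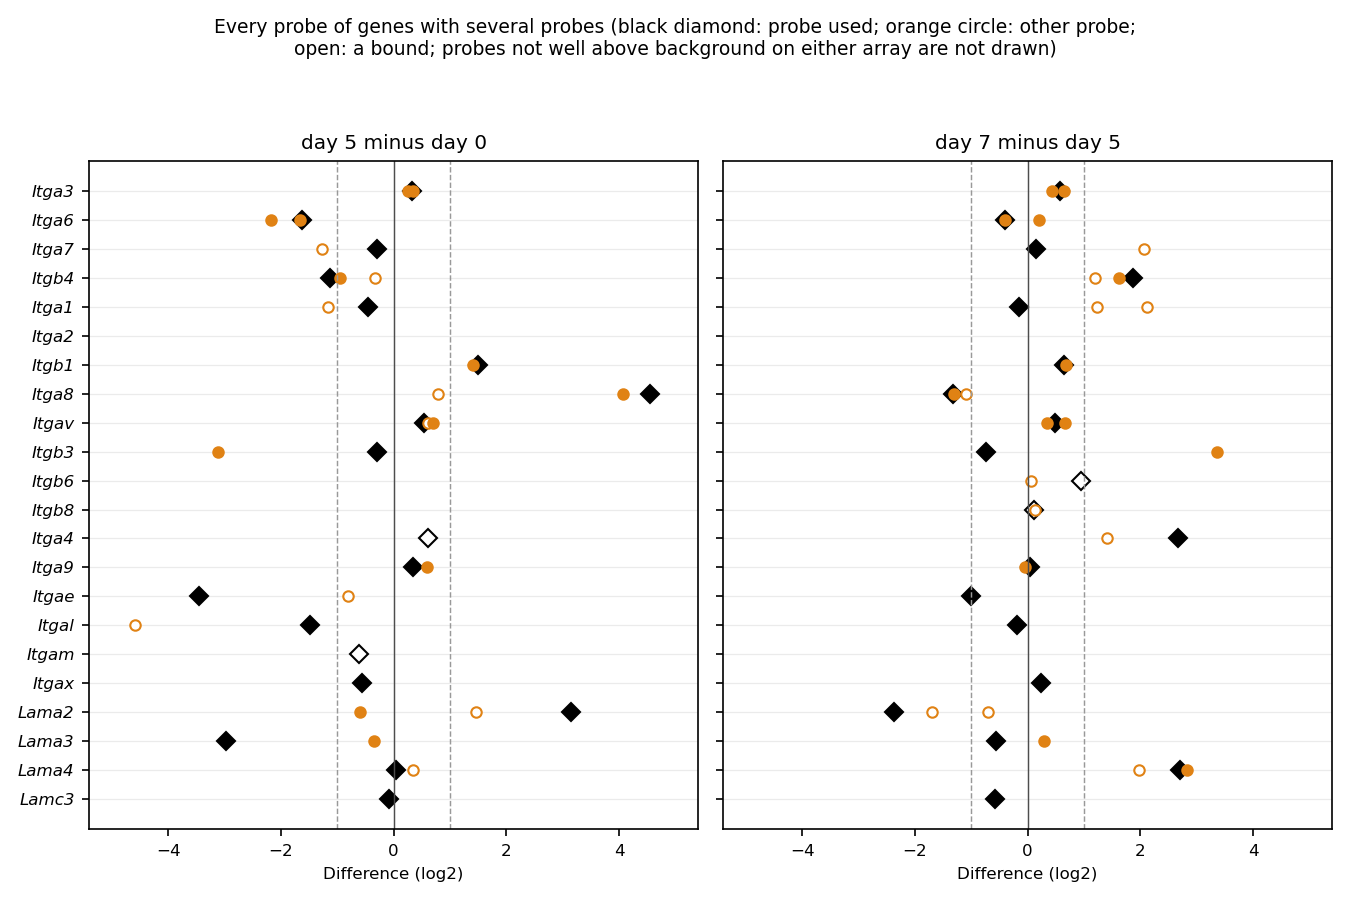
Difference in normalised log2 signal (x axis) for every probe of the genes with more than 1 probe (y axis), for day 5 minus day 0 and day 7 minus day 5. Diamonds are the probes used and circles the others. Itga6 and Itgb1 show nearby points in the left panel, while the Itgb3, Lama2 and Lama3 probes lie far apart.

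A total of 22 genes had several probes, which allowed a check within the arrays. For genes called between day 5 and day 0, 12 further probes could be compared, of which 11 had the same sign, 6 passed the limit the same way and 0 passed it the opposite way. Between day 7 and day 0, 13 further probes were compared, of which 12 had the same sign and 11 the same call. Between day 7 and day 5, 9 of 9 had the same sign and 8 the same call. These counts leave out genes whose probe used was not called, so they miss some disagreements. In the last comparison, other probes of the uncalled genes Itga1, Itga7 and Itgb3 passed the limit. The second Itgb3 probe was 10.2-fold higher on day 7 than on day 5, while the probe used gave -0.75. Probes of 1 gene read the same RNA and are not replicates. When all probes of a gene were summarised by their median, Lama2 was 2.11-fold higher and Lama3 3.16-fold lower on day 5 than on day 0, Itgae was 6.65-fold lower and Itgal 9.42-fold lower.

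The start regions of genes that moved together were compared in RefSeq sequence of GRCm38.p6, over windows of 300 bases that hold each gene's start and mostly the sequence before it. Such a window was at hand for 25 of the 38 genes. The motif GGGCGG (GC box), searched on both strands, was in 14 of the 28 windows of these genes, against 35.7% of all 32851 windows. By gene, 13 of the 25 with a window held it. Of the 6 genes higher on both later days than on day 0, 4 held it (Itga5, Itgb1, Lama5 and Lamb1), and Itga8 and Lamb3 did not. Among the 5 genes lower on both days, 1 had a window, that of Itgb7, and it held none. With 1 such window, no contrast of higher and lower genes can be drawn. TGTTTAC, a forkhead motif, was in 0 of the 28 windows and in 3.65% of all windows, and TATAAA was in 0 of the 28 and in 13.6% of all. A match is a description of the letters, and these groups were formed from the values above. The windows of Lamb1 (chr12:31265043-31265342, plus strand), Itga5 (chr15:103366742-103367041, minus strand) and Itgb7 (chr15:102231886-102232185, minus strand) are printed 5′ to 3′, with the GC boxes in capitals, to show a pair of genes that were higher and one that was lower. Lamb1 and Itga5 have 2 GC boxes each, all on the reverse strand (CCGCCC).
Lamb1 promoter: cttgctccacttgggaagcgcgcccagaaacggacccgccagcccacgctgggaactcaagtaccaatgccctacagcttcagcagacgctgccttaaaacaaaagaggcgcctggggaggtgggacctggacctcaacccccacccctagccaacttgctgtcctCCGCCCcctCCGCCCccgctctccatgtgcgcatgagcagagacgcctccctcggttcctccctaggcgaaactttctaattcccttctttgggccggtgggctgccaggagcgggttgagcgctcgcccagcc
Itga5 promoter: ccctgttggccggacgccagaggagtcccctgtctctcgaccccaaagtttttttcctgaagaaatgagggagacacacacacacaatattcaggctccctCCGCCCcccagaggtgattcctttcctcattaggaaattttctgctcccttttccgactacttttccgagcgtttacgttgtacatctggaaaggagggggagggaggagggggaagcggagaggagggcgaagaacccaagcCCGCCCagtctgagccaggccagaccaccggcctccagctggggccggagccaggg
Itgb7 promoter: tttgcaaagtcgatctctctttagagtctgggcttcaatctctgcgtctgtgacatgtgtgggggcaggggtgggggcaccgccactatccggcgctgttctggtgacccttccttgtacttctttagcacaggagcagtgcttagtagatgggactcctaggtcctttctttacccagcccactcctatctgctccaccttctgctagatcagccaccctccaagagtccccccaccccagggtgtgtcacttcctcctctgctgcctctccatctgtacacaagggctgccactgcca

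Genes that act with the integrins and laminins were counted as 5 lists. The other structural genes of the basement membrane were mostly higher than on day 0. Of 19 compared, 11 (57.9%) were higher and 2 lower on day 5 (median 1.41), against 16.8% and 16.5% of all genes. On day 7, 12 (63.2%) were higher and 1 (5.26%) lower (median 1.82), against 16.5% and 19.4%. Collagen IV, the second network of the basement membrane, was among them: Col4a1 had signals of -0.38, 3.08 and 4.46, and Col4a2 had -1.24, 1.92 and 3.77. On day 7 these were 28.5-fold and 32.2-fold higher than on day 0. Pxdn, the peroxidase that crosslinks collagen IV, was 23.7-fold higher on day 5 than on day 0, and Fras1, a basement membrane protein that anchors embryonic epithelia, was 5.14-fold higher. Smoc1 and Col18a1 were 3.6-fold and 3.23-fold lower on day 5 than on day 0. Between day 7 and day 5, 6 of 17 (35.3%) were higher and 1 (5.88%) lower, against 6.23% and 8.75% of all genes. Tinagl1 was 8.01-fold higher in that comparison, and Smoc2 was 9.63-fold lower.

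Genes that process or turn over the matrix were also mostly higher. Of 16 compared, 10 (62.5%) were higher and 2 (12.5%) lower on day 5 than on day 0 (median 1.53), and 11 (68.8%) were higher and 2 (12.5%) lower on day 7 (median 2.18), where the array-wide shares were as above. Serpinh1, the chaperone of collagen folding, was 9.01-fold higher on day 5, Mmp14, a membrane-bound matrix protease, 8.85-fold, and the protease inhibitor Timp2 13.6-fold. Timp1, another inhibitor of matrix proteases, was 6.15-fold lower. Plod2, a lysyl hydroxylase of collagen, was 5.47-fold higher on day 7 than on day 5, and Mmp9 was 3.34-fold lower.

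The intracellular adaptors of integrins were near the shares of the whole array on day 5, when 16.8% of all genes were higher and 16.5% lower than on day 0. Of 25 compared, 6 (24%) were higher and 4 (16%) lower on day 5 than on day 0 (median 0.18). Against day 0, the day 7 array had 6 of them (24%) higher and 3 (12%) lower (median 0.27), beside 16.5% and 19.4% of all genes. Tgfb1i1 (Hic-5), a focal adhesion adaptor, was 18.4-fold higher on day 5, and Zyx (zyxin) 3.55-fold higher. Parva, which links integrin-linked kinase to actin, was 3.04-fold higher on day 5 and 11.8-fold higher on day 7 than on day 0, whereas its relative Parvb was 5.4-fold lower on day 5. Lims2, of the same complex, was 7.69-fold lower on day 5 than on day 0 and 9.47-fold higher on day 7 than on day 5. This low point on day 5 was like that of Lama1. Fermt3, the kindlin of blood cells, was 2.25-fold lower on day 5 and 3.55-fold lower on day 7 than on day 0.

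Of 14 integrin ligands outside the basement membrane, 6 (42.9%) were higher and 4 (28.6%) lower on day 5 than on day 0, against 16.8% and 16.5% of all genes. On day 7, 7 of 15 (46.7%) were higher and 3 (20%) lower than on day 0, against 16.5% and 19.4%. Spp1 (osteopontin), a ligand of alphav and alpha4 integrins, had signals of 6.23, -0.04 and -2.30, so that day 5 was 77.1-fold and day 7 369-fold lower than day 0. Fn1 (fibronectin), the ligand of the Itga5 and Itgb1 pair, had 1.38, 0.22 and 1.08, and was 2.24-fold lower on day 5 than on day 0. Icam1 and Icam2, ligands of the Itgal and Itgb2 pair, were 8.18-fold and 10.9-fold lower on day 5 than on day 0, and Icam2 was 7.44-fold higher on day 7 than on day 5. Cyr61 and Thbs1, matricellular proteins, were 25.8-fold and 31.5-fold higher on day 7 than on day 0. Of 8 genes listed as laminin receptors other than integrins, 1 (12.5%) was higher and 2 (25%) lower on day 5 than on day 0. On day 7, 3 (37.5%), including the integrin-associated tetraspanin Cd151 (2.15-fold), were higher and 2 (25%) lower than on day 0. With so few genes, these shares move by 12.5 points for each gene. Among them the syndecan Sdc2 was 4.59-fold higher on day 5, and Sdc4 and Sdc1 were 3.54-fold and 2.44-fold lower, and both were also lower on day 7 than on day 0.

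**Figure D4:**
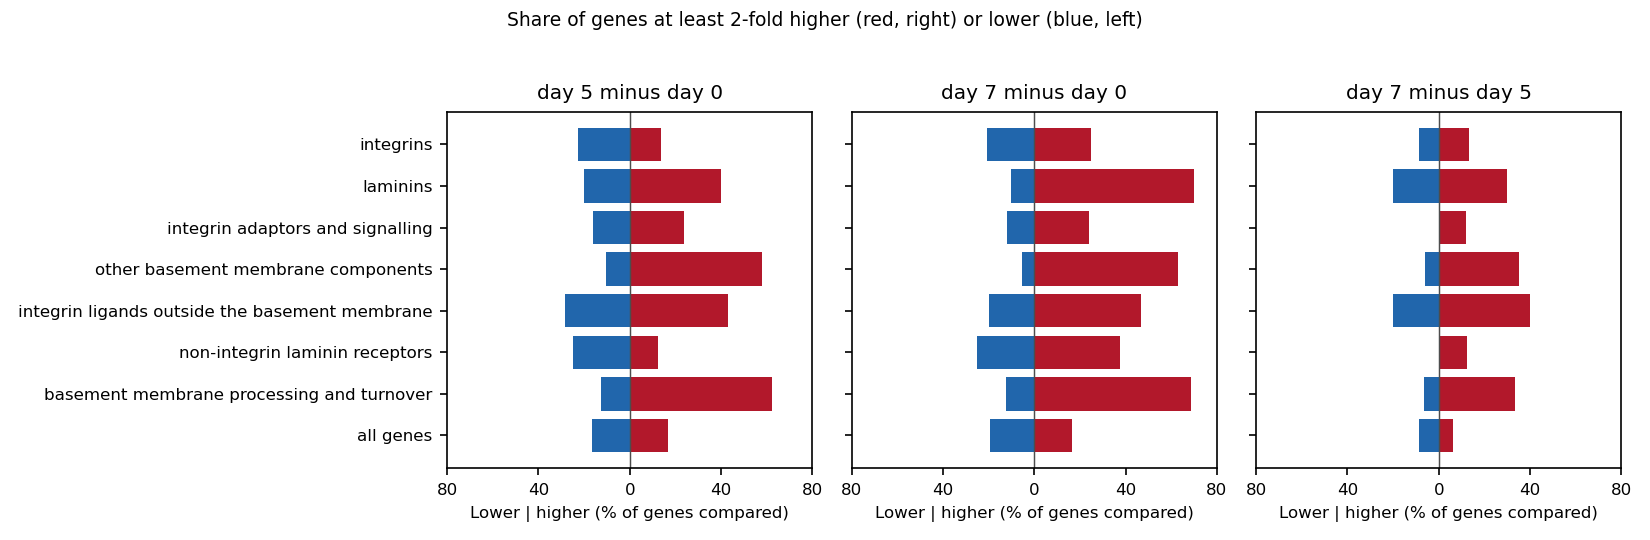
Percentage of the genes compared in each list (x axis) that were at least 2-fold higher (red, right) or lower (blue, left), for the integrins, the laminins, the 5 lists and all genes on the array, in each comparison. Bars start at 0. The laminins reach 70% higher for day 7 minus day 0, and all genes 16.5%.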

How the data were processed

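Per the file headers, the authors scanned 3 Cy3-labelled arrays, with signals extracted by Agilent Feature Extraction 10.5.1.1, and probe positions are on mm9. The deposited scanner files hold a linear fluorescence intensity per spot, and its background-corrected processed signal was used. The deposited value table holds log2 values that the authors made equal in distribution between arrays, by a step not given in the sources used here.

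Control spots and outlier spots were left out, spots of 1 probe were averaged, and log2 signals were centred on each array's 75th percentile with Python 3.11.15, pandas 2.3.3 and numpy 2.4.6. A probe was well above background when over 50% of its spots were so marked by that software. Of the 80 probes, 53 were named by accession and 27 by symbol through RefSeq, 1 gene (Lamb1) under an older name. A gene was represented by the probe well above background on most arrays and, among equals, the brightest. A dim value was replaced by the higher of itself and the lowest signal well above background on its array. The calling step was run on simulated data with known changes past the limit, in genes well clear of background. The noise was the spread of repeated spots, so the run gives no check on dim genes or on differences between arrays or cultures.

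The 38 genes are described whatever their values. Of each list, up to 4 genes with the largest and up to 4 with the smallest measured difference past the limit could be named, as could every marker. Members and lists were chosen with earlier results of these data known. Alternatives used limma 3.58.1 in R 4.3.3 (normexp, offset 50, and quantile normalisation), the authors' log2 values, the median over probes, and other filters on dim probes.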

Additional observations from a re-analysis of the deposited data

How the results depend on the processing

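Under 7 alternative settings, counts and medians over the 38 genes changed most with the normexp background correction fitted to all spots. That fit put the mean background at -1242, -12.7 and -344 on days 0, 5 and 7, against 15.5, 11.8 and 12.9 for the negative control spots, so the array-wide share of genes lower on day 5 than on day 0 became 45.2% in place of 16.5%. With it, 16 genes were lower on day 5 than on day 0 (median -0.82), 9 were higher and 14 lower on day 7 than on day 0 (median -0.34), and 16 were higher and 1 lower on day 7 than on day 5 (median 0.94). The sign turned for Lama2 (-2.01) and Lamb3 (-0.14) on day 5 against day 0, for Itga11 (-0.96), Lama4 (-0.78) and Lamb3 (-0.81) on day 7 against day 0, and for Itgae (0.92) and Lama2 (0.47) on day 7 against day 5. The calls of Itga6, Itgb4, Itga5, Nid1 and Nid2 on day 5 against day 0, of Itga8, Itgav, Itgb3 and Itga4 on day 7 against day 0, and of Lamb3 and Nid2 on day 7 against day 5 fell short of the limit. A normexp correction that takes the background from the negative controls, added after seeing the data, turned no call round. It moved the medians to -0.14 on day 5 and 0.36 on day 7 against day 0, and kept 16 of 16, 17 of 20 and 11 of 12 calls. Of the 48 calls, 10 moved by over 1.5 times with it, all of them towards smaller differences.

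The median on day 7 against day 5 was 0.29 with quantile normalisation, 0.29 with the authors' values and 0.25 with the median over probes, and the last also gave 0.14 on day 7 against day 0. For these settings and both other filters on dim probes, the counts of higher and lower genes stayed within 1.5 times the main ones. Quantile normalisation and the authors' values set the median over all genes on day 7 against day 0 at -0.11 and -0.08, in place of -0.20. The median over probes lost the call of Itgb4 on day 5 against day 0 (-0.95).

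No paired analysis was possible because each day has 1 array and the labels give no replicate numbers. Signals near background limit the integrins with dim probes, for which a bound, or no fold, is given.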
